A study of Mus musculus with 13 samples.

Results

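Smooth muscle type contractile genes encode the actin and myosin filaments, and the proteins that bind them, with which smooth muscle cells and myofibroblasts pull. The 10 genes described here were chosen by name, with earlier results of these data known. They were the smooth muscle actins Acta2 and Actg2, the actin-binding genes Tagln, Cnn1 and Cnn2, and the tropomyosins Tpm1, Tpm2 and Tpm4. The myosin light chain Myl9 and the myosin heavy chain Myh11 completed the group. Of these 10 genes, 9 stood in at least 1 of the authors' 3 deposited tables, which together hold 1592 gene names. Each table lists genes that differed between 1 inhibitor and vehicle with an adjusted p under 0.05 and a change of at least 0.58 on the log2 scale, about 1.5-fold, in either direction.

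The RNA came from primary astrocytes of wild type C57BL/6 mice at postnatal days 1 to 3, grown out of retina and optic nerve and kept in medium with 10% serum. The 13 samples comprised 4 given vehicle, 3 given SB431542, 3 given HLM006474 and 3 given a RUNX1 inhibitor, all for 24 h. SB431542 inhibits the TGF-beta and activin type I receptor kinases, and HLM006474 inhibits the E2F family of cell cycle transcription factors. The last compound bears the labels' name in the plot of the members' fold changes and is called the RUNX1 inhibitor elsewhere. It is directed at the transcription factor RUNX1 and the CBFB subunit with which it binds DNA. The activity of the targeted proteins was not measured. Doses are not stated in the labels, nor is it stated whether replicate samples were separate cultures, so p-values measure only the spread between the sequenced samples, possibly a technical one. The comparisons ask how each inhibitor changed gene expression in these cells. All 3 comparisons share the 4 vehicle samples, so they are not independent of each other.

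Smooth muscle actin filaments slide on myosin when the light chain is phosphorylated, and tropomyosin, calponin and transgelin lie along the actin filament and tune that contact. Transcription of most of these genes is driven by serum response factor (SRF), which binds the CArG box in their promoters together with its cofactors of the myocardin family (myocardin, MRTF-A and MRTF-B), and TGF-beta raises many of them when fibroblasts become myofibroblasts. Acta2 and its partners are the usual marks of pericytes, vascular smooth muscle and myofibroblasts, and cultured glia kept in serum can express them as well.

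Every contractile gene listed was lower than in vehicle. Of the 10 genes, the authors' deposited tables list 8 for the RUNX1 inhibitor, 7 for HLM006474 and 3 for SB431542, all 8, 7 and 3 lower. The shares of all tested genes listed as lower were 2.32% for the RUNX1 inhibitor, 4.22% for HLM006474 and 2.64% for SB431542. Because the genes were chosen with earlier results of these data known, setting their counts beside these shares is no test. Acta2, Actg2 and Tagln were listed for all 3 inhibitors, 3 other genes (Myl9, Cnn2 and Tpm2) for HLM006474 and the RUNX1 inhibitor, and 3 (Cnn1, Tpm4 and Myh11) for 1 inhibitor. Tpm1, the tropomyosin gene with the most annotated coding transcripts of the 3 here, was in no table, so no value for it can be given. Values per sample were not analysed here, so whether groups overlapped in single samples is unknown. Errors are the authors' standard errors of the log2 fold change (SE), and 95% intervals are computed from them.

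**Figure D1:**
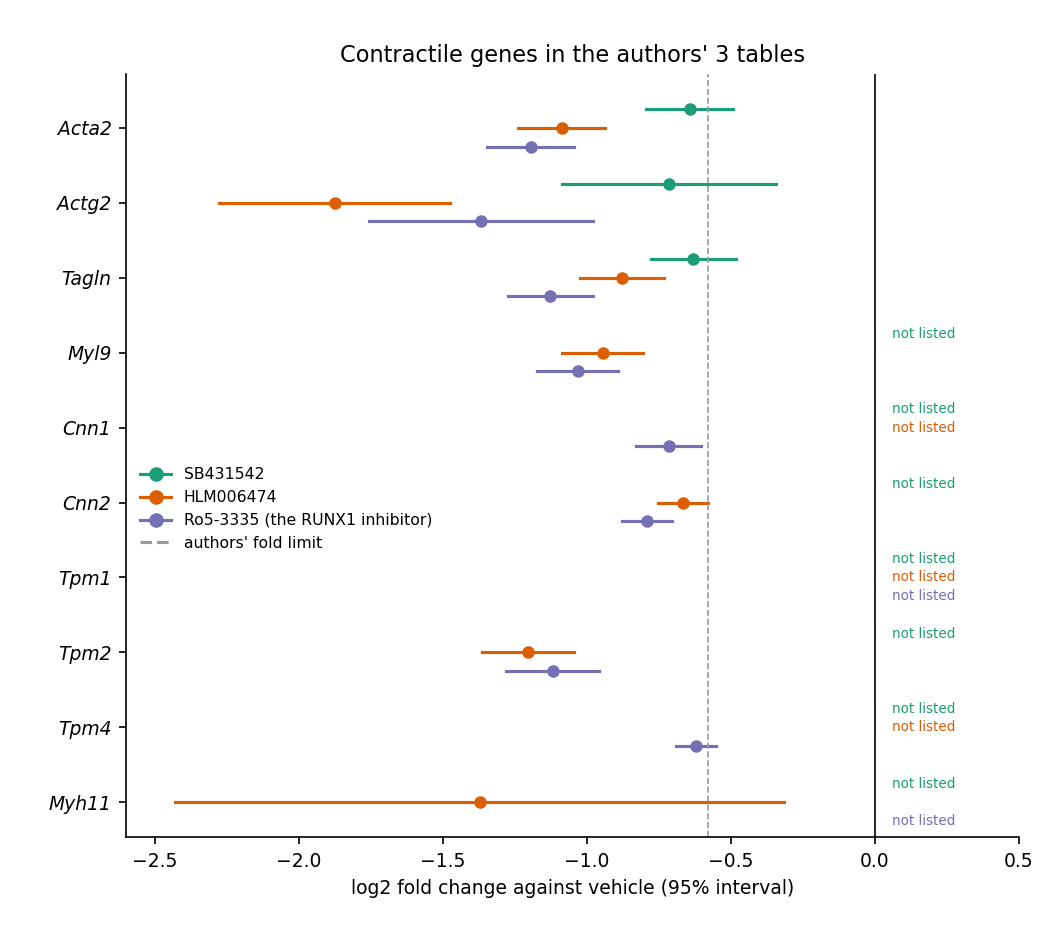
Log2 fold change against vehicle (x axis) of the 10 contractile genes (y axis) under each inhibitor; points are the authors' deposited values, bars their 95% intervals, and the dashed line the authors' fold limit. Actg2 under HLM006474 lies farthest left, at -1.88, and SB431542 has points for 3 genes only.

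Acta2, the smooth muscle alpha actin that serves as the standard myofibroblast mark, was among the most abundant listed transcripts, with a mean normalised count of 37998 over the samples. In the authors' deposited tables its log2 fold change was -1.19 ± 0.078 (SE) under the RUNX1 inhibitor, -1.09 ± 0.078 under HLM006474 and -0.64 ± 0.078 under SB431542. From these values the Acta2 level stood at 43.7% of vehicle under the RUNX1 inhibitor (95% interval 39.3% to 48.5%), at 47.1% under HLM006474 (42.4% to 52.3%) and at 64.1% under SB431542 (57.7% to 71.2%). The intervals under the RUNX1 inhibitor and HLM006474 overlapped, while the interval under SB431542 lay above both. Because Acta2 was listed for all 3 inhibitors, its mean in each group can be approximated from its overall mean and its fold changes, if that mean is taken over the 13 samples. This gives mean normalised counts of about 57141 in vehicle, 36607 with SB431542, 26900.0 with HLM006474 and 24965 with the RUNX1 inhibitor.

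Actg2, the gamma actin of enteric smooth muscle, was expressed far lower, with a mean normalised count of 141. Its log2 fold change was -1.88 ± 0.20 under HLM006474, -1.37 ± 0.20 under the RUNX1 inhibitor and -0.71 ± 0.19 under SB431542 in the authors' deposited tables. The level was 27.2% of vehicle under HLM006474 (95% interval 20.6% to 36.0%), 38.8% under the RUNX1 inhibitor (29.6% to 50.7%) and 61.0% under SB431542 (47.1% to 78.9%). The approximate mean normalised counts were 235 in vehicle, 143 with SB431542, 90.9 with the RUNX1 inhibitor and 63.9 with HLM006474. Actg2 had the largest fall of the 10 genes under HLM006474, and its fall was the 3rd largest of the 407 lower genes with a mean count of at least 100 in that table. In the RUNX1 inhibitor table it was the 4th largest of 225 such genes.

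Tagln, which encodes the actin-bundling protein transgelin (SM22-alpha), had a mean normalised count of 33838. The authors' deposited tables give it a log2 fold change of -1.13 ± 0.075 under the RUNX1 inhibitor, -0.88 ± 0.074 under HLM006474 and -0.63 ± 0.074 under SB431542. That is 45.8% of the vehicle level under the RUNX1 inhibitor (95% interval 41.4% to 50.7%), 54.4% under HLM006474 (49.2% to 60.2%) and 64.7% under SB431542 (58.4% to 71.6%). The value was lowest under the RUNX1 inhibitor and highest under SB431542, with the interval under HLM006474 overlapping both. Approximate means were 49164 normalised counts in vehicle, 31794 with SB431542, 26755 with HLM006474 and 22531 with the RUNX1 inhibitor. Tagln lies on the strand opposite to Pcsk7, and part of each gene overlaps. Library strandedness is not stated in the labels, so reads of the 2 genes may not have been told apart in the shared part.

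Myl9, the regulatory light chain whose phosphorylation switches smooth muscle myosin on, had a mean normalised count of 6146. Its log2 fold change was -1.03 ± 0.072 under the RUNX1 inhibitor and -0.94 ± 0.072 under HLM006474 in the authors' deposited tables. The Myl9 level was 48.9% of vehicle (95% interval 44.4% to 54.0%) with the first and 52.0% (47.1% to 57.3%) with the second, and it was not listed for SB431542.

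The calponins, which bind actin and restrain myosin, had smaller fold changes. Cnn2, the calponin of both muscle and other cells, stood at -0.79 ± 0.045 under the RUNX1 inhibitor and at -0.67 ± 0.044 under HLM006474, with a mean normalised count of 8784, in the authors' deposited tables. This corresponds to 57.8% (95% interval 54.4% to 61.5%) and 63.0% (59.3% to 66.9%) of the vehicle level. Cnn1, the calponin typical of differentiated smooth muscle, was listed for the RUNX1 inhibitor only, at -0.72 ± 0.058 with a mean normalised count of 7880, in the authors' deposited table. Its level was 60.9% of vehicle (56.3% to 65.9%).

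Among the tropomyosins, Tpm2, the beta chain, had a mean normalised count of 1410 and fell under both inhibitors that listed it. It stood at -1.20 ± 0.082 under HLM006474 and -1.12 ± 0.082 under the RUNX1 inhibitor in the authors' deposited tables, or 43.4% (95% interval 38.9% to 48.6%) and 46.1% (41.2% to 51.5%) of vehicle. Tpm4, a tropomyosin of the cytoskeleton of many cell types, had a mean normalised count of 7369 and was listed for the RUNX1 inhibitor only, at -0.62 ± 0.035 in the authors' deposited table. That is 65.1% of vehicle (62.1% to 68.3%), just inside the fold limit of 0.58. Of the distinct 50-base stretches in the annotated Tpm4 transcripts 12.1% also occur in Gm7809, so some Tpm4 reads may have been assigned to that gene or left out. The shared part was under 1% for the other 9 genes, 0.326% for Acta2 and 0.391% for Myh11 among them.

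Myh11, the myosin heavy chain of mature smooth muscle, was near the lower limit of detection, with a mean normalised count of 13.6. The authors' deposited table lists it for HLM006474 only, at -1.37 ± 0.54 with an adjusted p of 0.0448. The level was 38.6% of vehicle with a wide interval, 18.6% to 80.5%. No gene in the RUNX1 inhibitor table has a mean count under 21.6, so Myh11 may not have been tested there, and its absence from that table carries no information.

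The members ranked high among all listed genes by the authors' p-values under the RUNX1 inhibitor, where Cnn2 had the lowest p of the 397 genes and Tpm4 the second lowest. Acta2, Tagln and Myl9 stood at places 4, 5 and 6 of that table, Tpm2 at 9, Cnn1 at 15 and Actg2 at 74. Under HLM006474 Cnn2 was at place 18 of 856, Tpm2 at 22, Acta2 at 27, Myl9 at 36, Tagln at 59, Actg2 at 125 and Myh11 at 830. In the SB431542 table Tagln was at place 159 of 748, Acta2 at 168 and Actg2 at 477. A place by p reflects precision as well as size: Tpm4 changed less than Acta2 but had an SE of 0.035 against 0.078, although Acta2 had the higher count. By size of the fall among the 225 lower genes with a mean count of at least 100 under the RUNX1 inhibitor, Acta2 was 12th, Tagln 19th, Tpm2 21st, Myl9 27th, Cnn2 71st, Cnn1 112th and Tpm4 195th.

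**Figure D2:**
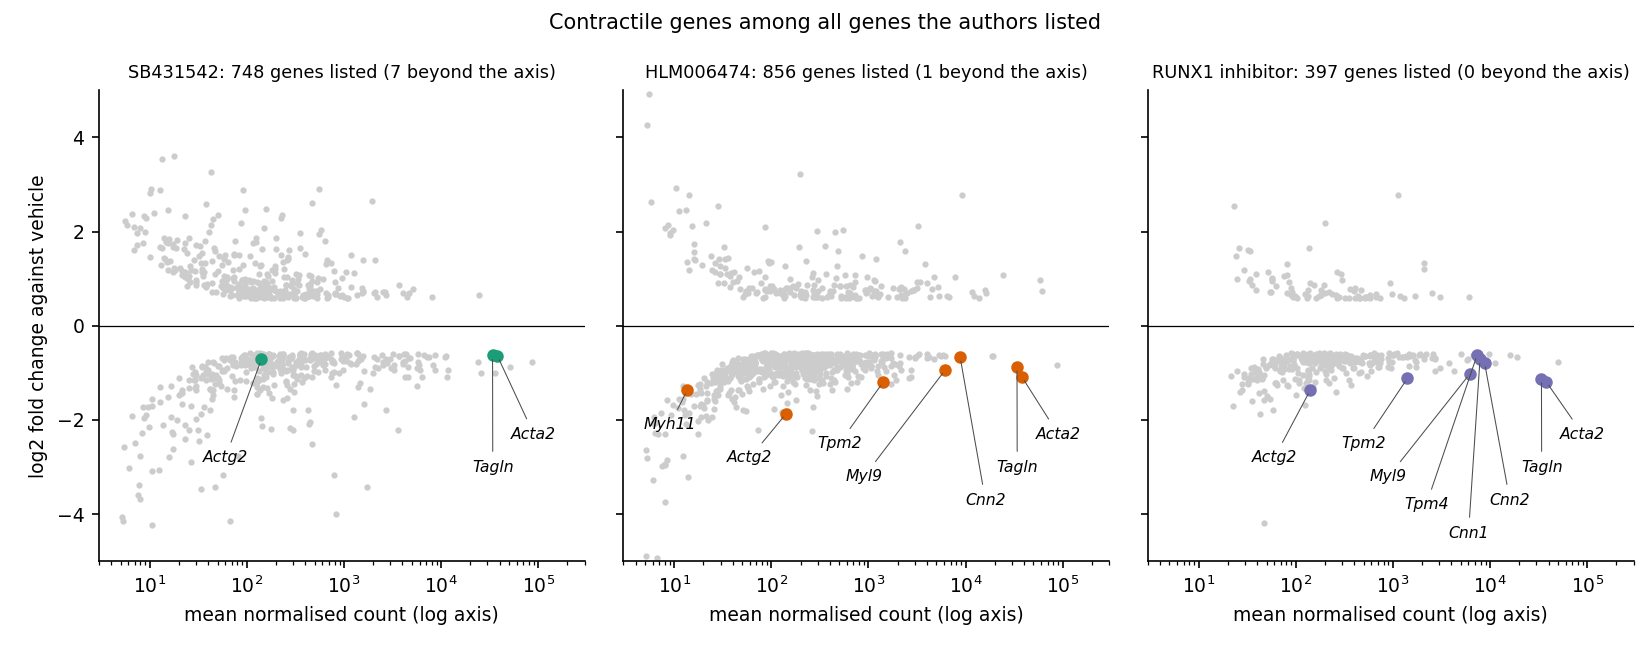
Log2 fold change against vehicle (y axis) and mean normalised count (x axis, log scale) of all genes the authors listed for each inhibitor (grey), with the contractile genes coloured and named. Acta2 and Tagln are among the 5 listed genes with the highest mean counts in each panel, at 37998 and 33838, and no contractile gene lies above 0.

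Levels can be set beside each other between genes only per length of transcript. Per kilobase of annotated coding-transcript exon, Tagln had a mean normalised count of 21215 and Acta2 of 18672, which placed these above Myl9 at 5449. Cnn2, Tpm4 and Cnn1 followed at 3571, 3463 and 3126 per kilobase. Tpm2 stood at 592, Actg2 at 103 and Myh11 at 2.06 per kilobase. The smooth muscle actin and transgelin transcripts were thus abundant in these cultures while the mature smooth muscle heavy chain was close to 0. No error over samples can be given for these levels, so the order among Cnn2, Tpm4 and Cnn1 is not shown to be real.

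The promoters of the members were read for the CArG box, since SRF acts through it. RefSeq promoter windows on GRCm38.p6 were at hand for 7 of the 10 genes, and the 250 bases before the transcript start were searched. A full CArG box was found in 2 of the 7, Myl9 and Cnn2, beside 1.47% of all 32851 promoter windows of that length. A box with 1 mismatch in its A and T core was found in 2 of the 7, Acta2 and Myl9, beside 7.24% of all windows. The stretches below are shown because they hold these boxes, which are in capitals, 5′ to 3′ on the strand of the gene. For Myl9 and Cnn2 the stretch ends before the first annotated exon. The GENCODE annotation of Acta2 begins upstream of both its boxes, so these are shown with 10 bases on each side.
Myl9, chr2:156775214-156775419, plus strand: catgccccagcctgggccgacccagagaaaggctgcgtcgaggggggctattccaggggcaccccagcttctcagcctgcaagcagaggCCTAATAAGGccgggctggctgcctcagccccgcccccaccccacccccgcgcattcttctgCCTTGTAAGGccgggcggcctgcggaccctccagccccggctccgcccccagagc
Cnn2, chr10:79988350-79988583, plus strand: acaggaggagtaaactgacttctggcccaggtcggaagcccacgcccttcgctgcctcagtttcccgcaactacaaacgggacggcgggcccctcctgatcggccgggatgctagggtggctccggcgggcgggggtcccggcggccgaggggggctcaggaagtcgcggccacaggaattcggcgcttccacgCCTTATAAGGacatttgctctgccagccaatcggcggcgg
Acta2, chr19:34255438-34255467, minus strand: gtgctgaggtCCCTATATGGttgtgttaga
Acta2, chr19:34255388-34255417, minus strand: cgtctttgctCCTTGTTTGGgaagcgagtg
The full Myl9 box starts 161 bases before the RefSeq start and its box with 1 mismatch 99 bases before it. The Cnn2 box starts 56 bases before the start, and the Acta2 boxes 84 and 34 bases before it. Tpm2, Tpm4 and Cnn1, which were lower under the RUNX1 inhibitor as well, had neither form in the window. A match is a description of these letters and no evidence of binding, and elements outside the window were not searched.

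The same windows were read for motifs of the factors that the 3 inhibitors act on or, for SB431542, that its receptors signal through, and for that of TEAD factors, on both strands. The RUNX motif TGTGGT was in 0 of the 7 windows, beside 14.0% of all. The E2F motifs TTTCCCGC or TTTGGCGC were in 1, Cnn2, beside 1.3% of all, and the SMAD motif CAGAC was in 1, Acta2, beside 42.2% of all. CATTCC, the TEAD motif, was in Acta2 and Tpm1, beside 12.6% of all. No motif letters overlapped those of another within a window.

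**Figure D3:**
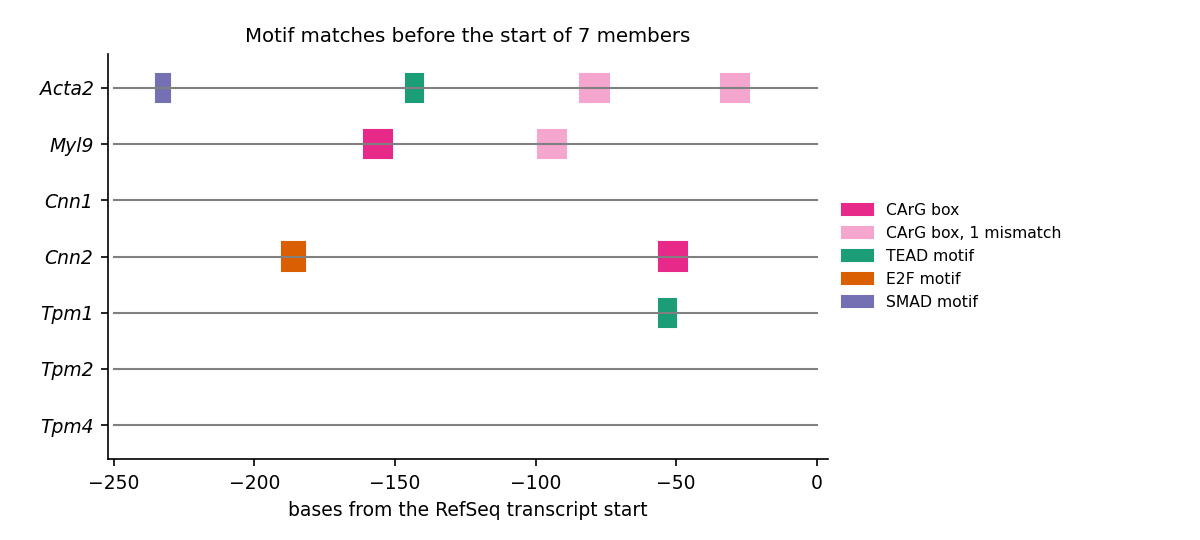
Positions of motif matches (coloured boxes) in the 250 bases before the RefSeq transcript start (x axis, in bases from the start) of the 7 members with a window (y axis). Full CArG boxes appear in Myl9 and Cnn2 only, and Cnn1, Tpm2 and Tpm4 hold no match to any motif searched.

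Differences between inhibitors were tested on the log2 fold changes of all genes in both tables of a pair with a 2-sided z test, adjusted by Benjamini and Hochberg over those genes. The RUNX1 inhibitor lowered Acta2 further than SB431542 did, by 0.55 ± 0.11 on the log2 scale (-0.55, 95% interval -0.77 to -0.34, adjusted p = 6.33e-06). For Tagln the difference between the RUNX1 inhibitor and SB431542 was -0.50 (-0.70 to -0.29, adjusted p = 2.48e-05). For Actg2 it was -0.65, with an interval of -1.19 to -0.12, and it did not pass after adjustment (adjusted p = 0.0883). Thus 2 of the 3 genes in both tables differed, where 17.2% of the 93 genes in both tables did.

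HLM006474 also lowered the actins further than SB431542. The difference was -0.44 (95% interval -0.66 to -0.23, adjusted p = 0.000238) for Acta2 and -1.16 (-1.71 to -0.62, adjusted p = 0.000149) for Actg2. Tagln, at -0.25 (-0.46 to -0.043), did not pass (adjusted p = 0.0539). Here 32.9% of the 161 genes in both tables differed.

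Between HLM006474 and the RUNX1 inhibitor none of the 6 members in both tables differed after adjustment in the z test, while 2, Tagln and Cnn2, had an unadjusted p under 0.05. The background in this pair was 9.52% of 210 genes. HLM006474 minus the RUNX1 inhibitor was 0.25 for Tagln (95% interval 0.041 to 0.45, adjusted p = 0.151) and 0.12 for Cnn2 (8.89e-05 to 0.25, adjusted p = 0.299). It was 0.11 for Acta2 (-0.11 to 0.32), 0.087 for Myl9 (-0.11 to 0.29), -0.085 for Tpm2 (-0.31 to 0.14) and -0.51 for Actg2 (-1.07 to 0.050). These intervals leave room for moderate differences, and for Actg2 for a large one, so the 2 inhibitors are not shown to act alike on these genes.

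The standard error in these tests counts the spread of the shared vehicle samples in both fold changes, which makes the tests cautious. With the vehicle cancelled, under equal spread in all groups, Tagln differed in all 3 pairs, with an adjusted p of 0.0150 for HLM006474 against the RUNX1 inhibitor and 0.00527 for HLM006474 against SB431542. Actg2 then differed between the RUNX1 inhibitor and SB431542 as well (adjusted p = 0.00831).

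**Figure D4:**
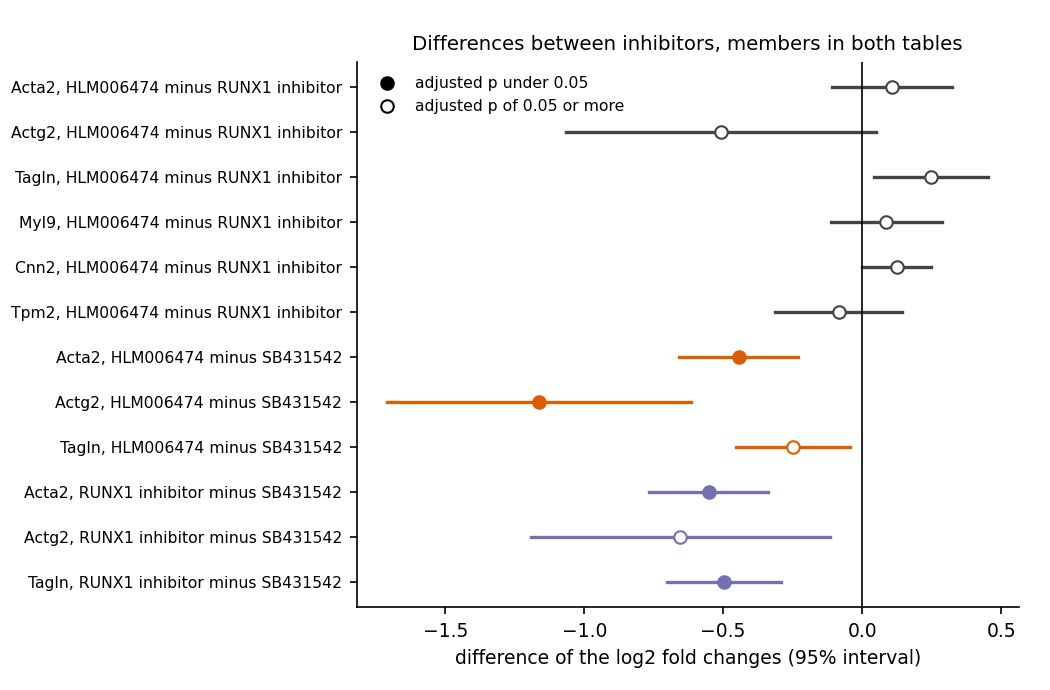
Differences of the log2 fold changes between inhibitors (x axis) for members in both tables of a pair (y axis), with 95% intervals; filled points have an adjusted p under 0.05 by the z test. The filled points are Acta2 and Actg2 for HLM006474 minus SB431542, and Acta2 and Tagln for the RUNX1 inhibitor minus SB431542.

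A member outside a table has no value there, but the listing limits bound its estimated fold change if it was tested. For Myl9, Cnn1, Cnn2, Tpm2 and Tpm4 that bound was 0.58 on the log2 scale, an estimated level not below 66.9% of vehicle under SB431542. The true change can lie beyond the bound by the error of the estimate. The change under the listing inhibitor was set against this bound over all genes in 1 of 2 tables, with the 2-sided z test. Genes entered this test only by passing the limits under the listing inhibitor, which favours calls for members and other genes alike. For SB431542 against the RUNX1 inhibitor, Myl9 (adjusted p = 0.000144), Tpm2 (adjusted p = 5.86e-05) and Cnn2 (adjusted p = 0.009997) lay beyond the bound, 3 of 5 members beside 13.3% of the 877 genes tested. Cnn1 (adjusted p = 0.426) and Tpm4 (adjusted p = 1) did not, so a fall of nearly the same size under SB431542 is possible. For SB431542 against HLM006474, Myl9 (adjusted p = 0.00572) and Tpm2 (adjusted p = 2.65e-06) passed, 2 of 4 members beside 9.38% of 1279 genes, and Cnn2 and Myh11 did not. The calls for Myl9 against HLM006474 and for Cnn2 ended when the bound was raised by 1 SE (adjusted p = 0.0676 and 0.0992). Between HLM006474 and the RUNX1 inhibitor, neither Cnn1 (adjusted p = 0.650) nor Tpm4 (adjusted p = 1) lay beyond the bound, and neither had an unadjusted p under 0.05, beside 3.71% of 755 genes that passed.

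Relatives of the members outside smooth muscle were listed for the RUNX1 inhibitor. Of 14 such actins, tropomyosins, calponins, transgelins and myosin chains, mostly non-muscle ones, 2 were lower there, beside 2.32% of all tested genes. For HLM006474 and SB431542 0 were listed, where 4.22% and 2.64% of all tested genes were lower. A count of 0 among 14 is near those shares, so these relatives are not shown to be particular to the RUNX1 inhibitor. Myh10, a non-muscle myosin heavy chain, stood at -0.62 ± 0.054, and Acta1, the skeletal muscle actin, at -1.79 ± 0.58 with a mean normalised count of 58.0, in the authors' deposited table. The cytoplasmic actins Actb and Actg1 were in none of the 3 tables. Myh8, a skeletal muscle myosin heavy chain outside the 14, went the other way: it was higher under SB431542, at 0.59 ± 0.15, and under HLM006474, at 0.88 ± 0.15 (both from the authors' deposited tables), and it was named after its values were seen.

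Some other smooth muscle genes for anchoring, calcium handling and control of the filaments were listed as well. Of 28 such genes 8 were lower under the RUNX1 inhibitor, 5 lower and 1 higher under HLM006474 and 3 lower under SB431542, where 2.32%, 4.22% and 2.64% of all tested genes were lower. Nexn, an actin-filament anchoring protein, stood at -1.16 ± 0.12, -0.73 ± 0.12 and -0.59 ± 0.12 in that order in the authors' deposited tables. Jph2, which ties the calcium store to the plasma membrane, stood at -1.22 ± 0.16 and Lmod1, a leiomodin of smooth muscle, at -0.60 ± 0.085 under the RUNX1 inhibitor in the authors' deposited table. The intermediate filament gene Synm was listed for SB431542 only, at -0.93 ± 0.090 in the authors' deposited table. The higher gene was Des, desmin, at 2.19 ± 0.74 under HLM006474 with a mean normalised count of 21.0, in the authors' deposited table; it was singled out after its values were seen.

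Further targets of SRF with its MRTF cofactors, mostly adhesion and filament genes, were listed for 2 of 21 in each table. Both were lower under the RUNX1 inhibitor, and 1 was lower and 1 higher under each of SB431542 and HLM006474, beside the shares of all tested genes given above for lower genes and below for higher ones. Flna, the actin cross-linker filamin A, stood at -0.76 ± 0.054 under the RUNX1 inhibitor in the authors' deposited table. The focal adhesion gene Tgfb1i1 (Hic-5) stood at -0.78 ± 0.081 under the RUNX1 inhibitor and -0.69 ± 0.081 under HLM006474 in the authors' deposited tables. Ccn2, the matricellular CTGF gene, was lower under SB431542, at -1.28 ± 0.059, and Filip1l higher, at 0.69 ± 0.19, in the authors' deposited table. Ankrd1, at 2.46 ± 0.92 with a mean normalised count of 13.3 under HLM006474 in the authors' deposited table, was named after its values were seen.

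SRF also drives immediate early genes, through ternary complex factors rather than MRTF, and these were higher in the same 3 comparisons, which share the vehicle samples. Of 11 immediate early genes 6 were higher under SB431542, 6 under HLM006474 and 5 under the RUNX1 inhibitor, and none was lower. The shares of all tested genes listed as higher were 2.29%, 1.42% and 0.605% in that order. Egr1 stood at 0.82 ± 0.095, 1.41 ± 0.095 and 0.62 ± 0.096, and Fosb at 1.62 ± 0.27, 3.22 ± 0.26 and 2.19 ± 0.27, in the same order, in the authors' deposited tables. Srf itself and the cofactor genes Myocd, Mrtfa and Mrtfb were not listed for any inhibitor. A list of 29 regulator names held these cofactors, some of them under an old and a new name. It also held the TGF-beta receptors, the SMADs and the RUNX genes but no E2F gene. Of these 29 names 4 were lower under SB431542 in the authors' deposited table. They were Tgfbr1 at -1.01 ± 0.071, Smad7 at -1.06 ± 0.15, Runx2 at -0.66 ± 0.19 and Runx3 at -0.72 ± 0.26. Under HLM006474 1 was lower, Runx3 at -0.98 ± 0.27, and under the RUNX1 inhibitor 0 were listed. These counts stand beside 2.64%, 4.22% and 2.32% of all tested genes listed as lower, in that order. The counts under HLM006474 and the RUNX1 inhibitor are near those shares. The E2F genes E2f2, E2f7 and E2f8, named after their values were seen, stood at -1.001 ± 0.14, -0.75 ± 0.24 and -1.23 ± 0.13 under HLM006474 in the authors' deposited table. E2f8 was lower under the RUNX1 inhibitor too, at -0.89 ± 0.13 in the authors' deposited table.

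**Figure D5:**
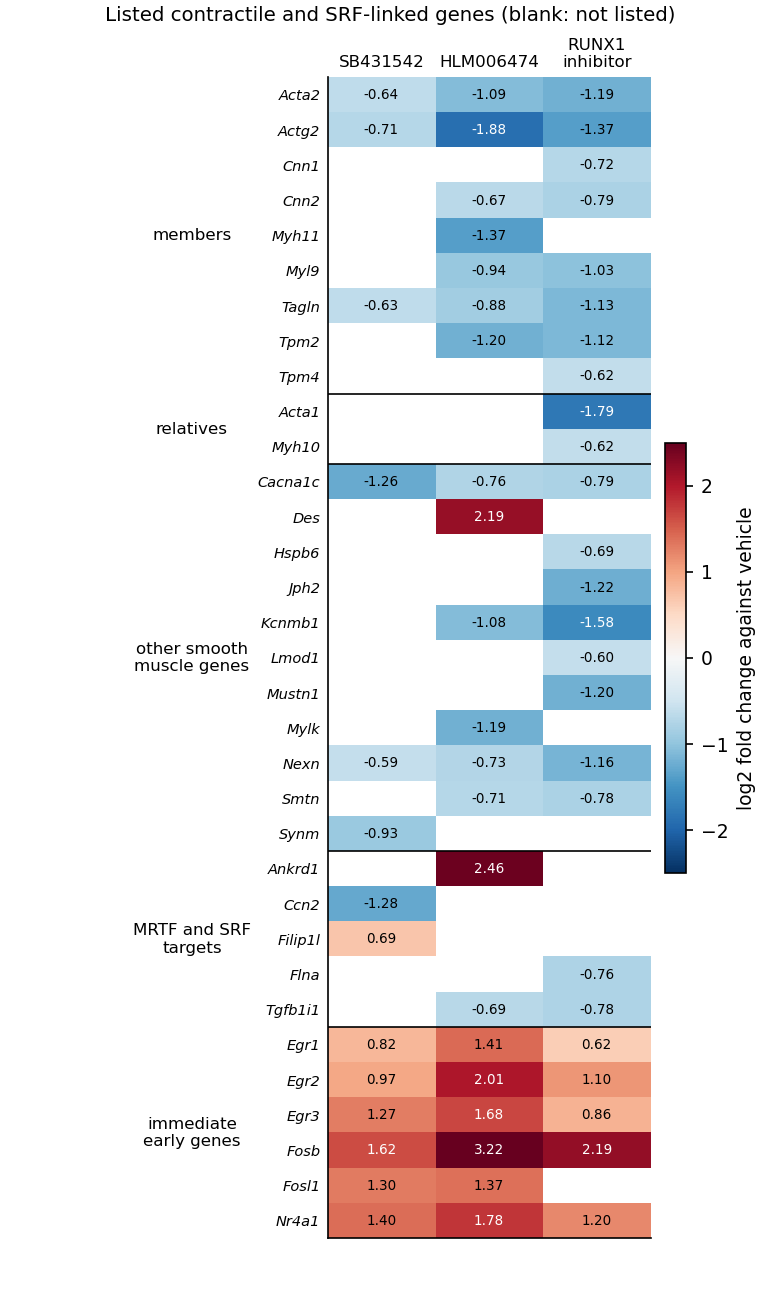
Log2 fold change against vehicle (colour and printed value) of the listed genes of 5 groups (rows) under each inhibitor (columns); blank cells were not listed. The contractile members are lower in every filled cell and the immediate early genes higher in every filled cell.

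Acta2 and its partners mark pericytes and smooth muscle cells, so other markers of those cells are given beside them. In bulk RNA, fewer cells of a type and less RNA per cell cannot be told apart. Of 10 pericyte and smooth muscle markers outside the contractile genes, 0 were listed for the RUNX1 inhibitor, where 2.32% of all tested genes were lower and 0.605% higher, so a count of 0 among 10 is near that background. HLM006474 listed 2, Cspg4 at -1.01 ± 0.14 and Rgs5 at -0.60 ± 0.21, both lower, beside 4.22% of all tested genes, in the authors' deposited table; Rgs5 was named after its values were seen. SB431542 listed 3 lower, Cspg4 at -1.04 ± 0.14, Mcam at -0.93 ± 0.086 and Notch3 at -0.63 ± 0.070, and 1 higher, Anpep at 2.04 ± 0.55, in the authors' deposited table, beside 2.64% lower and 2.29% higher of all tested genes. Fibroblast markers were listed as lower for 2 of 11 under SB431542 (Col1a1 and Col1a2), 1 under HLM006474 (Pdgfra) and 0 under the RUNX1 inhibitor. The part of these cells in the fall of the contractile genes was not tested.

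Some markers of the labelled cell type and of other cells in the culture were listed as well. Of 14 astrocyte markers each inhibitor listed 1, Fabp7 for the RUNX1 inhibitor at -0.67 ± 0.055 and for HLM006474 at -0.64 ± 0.055, and Kcnj10 for SB431542 at -0.77 ± 0.037, in the authors' deposited tables. Mean normalised counts were 18965 for Fabp7 and 23893 for Kcnj10. Levels of astrocyte markers outside the tables were not analysed here, so the cell type label was not checked. Of 12 microglia and macrophage markers 0 were listed for the RUNX1 inhibitor, 3 were lower and 1 higher under HLM006474, and 4 were lower and 2 higher under SB431542. Tmem119, a marker of microglia, stood at -4.00 ± 0.11 and Cx3cr1 at -2.21 ± 0.081 under SB431542, while the lysosomal marker Cd68 stood at 0.72 ± 0.075, in the authors' deposited table. Of 9 oligodendrocyte markers 5 were lower under HLM006474 and 0 were listed for the other two. These counts stand beside 4.22% lower and 1.42% higher of all tested genes under HLM006474, and 2.64% and 2.29% under SB431542. Under the RUNX1 inhibitor the shares were 2.32% and 0.605%. The astrocyte count of 1 among 14 is near those shares for each inhibitor. So are the counts of 0 for microglia and oligodendrocyte markers under the RUNX1 inhibitor. Of 6 endothelial markers Flt1 was listed, for SB431542 and the RUNX1 inhibitor, and of 9 skeletal muscle markers Casq1, for all 3 inhibitors, each lower. With 1 listed gene each, these lists are too short to be read against the shares. The part of other cells in the results above was not tested.

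The genes whose pattern was most like that of Acta2, Actg2 and Tagln were sought among the 57 genes in all 3 tables, by the Euclidean distance of their 3 log2 fold changes from the mean of those 3 genes. Of 33 genes outside the lists with a mean count of at least 100, the 5 closest were Fbn2, Clmp, Gbx2, Megf6 and Gpr84, at distances of 0.474, 0.515, 0.567, 0.571 and 0.586. Acta2 itself lay at 0.197, Tagln at 0.417 and Actg2 at 0.614. Fbn2, which encodes the microfibril protein fibrillin 2, stood at -0.82 ± 0.18 under SB431542, -1.25 ± 0.19 under HLM006474 and -0.78 ± 0.18 under the RUNX1 inhibitor in the authors' deposited tables. All 5 had their lowest value under HLM006474, as Actg2 did, whereas Acta2 and Tagln had their lowest values under the RUNX1 inhibitor. Genes of the companion lists, Nexn among them, were left out of this search.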

How the data were processed

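RNA was sequenced in 13 samples, 4 with vehicle and 3 with each of 3 inhibitors. The submitters' processing notes name CASAVA 1.8, STAR 2.7 and DESeq2 1.30.1, with build GRCm38; for the read counter and annotation, nothing was given in the sources used here. The authors' deposited tables hold, per the file headers, a mean normalised count (a signal averaged over libraries), the log2 fold change and the standard error of that log2 value, a Wald score, and a p-value with its adjusted p-value. A gene's mean count is identical in all 3 tables. The tables hold only genes past the authors' limits and no values per sample, so depth is unknown and the error of a value is the authors' standard error.

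The ratio of p to adjusted p gave 15169 genes tested for SB431542 and HLM006474 and 13561 for the RUNX1 inhibitor, with 80.5%, 81.1% and 83.6% of the implied ranks whole within 0.02. Intervals are the value ± the normal 95% range. The z tests are as described with the results and were tested on simulated data, as was the search for the number of genes tested. A symbol on 2 rows of the HLM006474 table was left out of them. Gene positions and exons came from GENCODE M21, promoters from RefSeq. The members and lists were chosen with earlier results of these data known. Named beside the members were up to 4 genes of each companion list with the lowest adjusted p, the 5 nearest in pattern, and some genes named after their values were seen, which the text marks. Alternatives were a stricter adjusted p, a stricter fold, a mean count minimum, another standard error, another adjustment and a raised bound. Python 3.11.15, scipy 1.17.1 and pandas 2.3.3 were used.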

Additional observations from a re-analysis of the deposited data

How the results depend on the processing

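With a fold change of at least 2 as the limit, 5 members remained listed for the RUNX1 inhibitor, 4 for HLM006474 and 0 for SB431542. The limit itself sets these counts. With an adjusted p under 0.01, or a mean count of at least 100, Myh11 left the HLM006474 count, which then stood at 6, and the counts for the RUNX1 inhibitor and SB431542 did not change. With the vehicle cancelled in the standard error, 1 member differed between HLM006474 and the RUNX1 inhibitor, against 0 without. With genes of a mean count of at least 100 only, Tagln differed between HLM006474 and SB431542 (adjusted p = 0.0454). With the bound raised by 1 standard error, 1 member lay beyond it for HLM006474 against SB431542. Adjustment over the 3 pairs together changed no member's call. These alternatives keep the deposited fold changes, so they bear on calls and not on directions. No paired analysis was possible because the tables hold fold changes and no values per sample, and for the same reason no sample could be left out. A change under the fold limit was not detectable from the tables: the last listed gene implies 3148 genes with an adjusted p at or below its own for SB431542, of which 748 were listed.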
